A study of Mus musculus with 8 samples.

Results

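The genes described here encode 9 surface proteins of the B lineage: Cd22, Cd72, Cd24a, Cd38, Ms4a1, Cr2, Cd93, Ptprc and Ly6d. They were chosen by name, as a family of B cell glycoproteins and receptors, with earlier results of these data known. They make up 9 of the 32499 genes in the count table. Of these 9, 8 passed the filter on low counts, as did 12970 genes in all, and Ms4a1 did not. RNA was sequenced from pre-B cells grown from C57BL/6 bone marrow. Every group, controls included, lacked Arf, a tumour suppressor made from Cdkn2a, had received lentivirus, and was sorted for GFP. The 4 groups of 2 libraries carried an empty vector, HA-tagged full-length ZNF384 (labelled wild type), TAF15-ZNF384-HA or TCF3-ZNF384-HA. ZNF384 is a zinc finger transcription factor, and acute leukaemias carry fusions of its gene with partners that include TAF15 and TCF3. The design text calls the replicates biological; the labels do not say whether they came from separate transductions, so the p-values measure the spread between these samples. The constructs were added to cells that keep their own Zfp384, and the labels give neither the promoter that drives them nor their protein level.

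These proteins are used to place B lineage cells by stage and to set how strongly an antigen receptor signals. CD22 and CD72 are inhibitory coreceptors whose cytoplasmic tails recruit phosphatases, CR2 (CD21) binds complement fragments as part of the B cell coreceptor, and MS4A1 (CD20) is a tetraspan protein gained on mature B cells. CD93, CD24 and LY6D mark early B lineage stages, CD38 is an ectoenzyme that consumes NAD, and PTPRC (CD45) is the receptor phosphatase carried by all nucleated blood cells.

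Library totals ran from 9381954 counts in a TAF15-ZNF384 library to 41483660 in a full-length ZNF384 library, and were lower with both fusions than with the other constructs. A set of 5 abundant non-coding genes took 10.9% and 12.5% of the counts with full-length ZNF384 and 18.5% to 33.2% in the other 6 libraries; their part in the results was not tested beyond leaving them out. Zfp384, which can report a human construct only as far as its reads map to the mouse gene, was at 24 and 21.6 normalised counts, scaled to a common library size and given as CPM, under the empty vector, 51.1 and 90.2 after full-length ZNF384, 185 and 162 after TAF15-ZNF384, and 511 and 450 after TCF3-ZNF384. The groups did not overlap, and the Zfp384 count rose in this order. As it holds the cells' own transcript and only part of each construct, the construct levels were not measured, and differences in level and in kind of construct cannot be told apart. In the table's column names the 6 construct libraries carry a replicate suffix that the 2 empty vector libraries lack; what it marks is not given, and any difference it marks cannot be told apart from the comparisons with the empty vector. As checks of the labelled cell type, 13 pre-B identity genes summed to between 4300 and 4880 CPM over the 8 libraries, with none at 0. Abundant genes carry that sum, and single genes of the list moved: against the empty vector 2 rose and 0 fell with full-length ZNF384, 4 rose and 1 fell with TAF15-ZNF384, and 6 rose and 3 fell with TCF3-ZNF384, where 20.6%, 11.0% and 33.3% of all tested genes were called. With TCF3-ZNF384 the recombinase gene Rag1 rose from 0.375 to 61.3 CPM and Dntt, which encodes terminal transferase, from 2.8 to 57.1, while the surrogate light chain genes Vpreb2, Igll1 and Vpreb1 fell from 274 to 75.3, from 723 to 484 and from 477 to 329. For Rag1, and for Rag2 on the same list, only the fusion groups had both libraries over the filter level of 0.524 CPM. Genes kept in this way had to be high with a fusion. Rises of Rag1 and Rag2 there are descriptions only and add nothing to the counts. The table holds 14 myeloid marker genes, of which Ctsg, S100a8 and S100a9 were at 0 in every library. The highest was Itgam, at 1.01 and 0.915 CPM with TCF3-ZNF384, while Ly6g reached 0.871 and Mpo 0.323 CPM. The 14 summed to 0.423 to 2.10 CPM. Of the 2 tested, 1 rose with TCF3-ZNF384 against the empty vector, which was Itgam.

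Each gene was compared between groups with edgeR's quasi-likelihood test, 2-sided, and p was adjusted by the Benjamini-Hochberg method over the 12970 tested genes. A gene is said to have risen or fallen where the adjusted p was under 0.05. CPM values use library sizes scaled by edgeR (TMM), and changes are log2 fold changes ± SE. Where total-count scaling is named as an alternative, library totals were used without TMM, after the 5 abundant non-coding genes were left out. The 3 comparisons with the empty vector share its 2 libraries, so their values stand side by side and are not independent.

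Full-length ZNF384 raised Cd22 and Cd93 and lowered Cd72 and Ly6d. These 4 of 8 tested members, 2 in each direction, stand against 20.6% of all tested genes called in that comparison, 10.8% as higher and 9.87% as lower. With TAF15-ZNF384, Cd38, Ly6d and Cd72 rose and Cd93 fell, 4 of 8 members against 11.0% of all tested genes (5.01% higher and 6.01% lower). TCF3-ZNF384 raised Cd38 and Ly6d and lowered Cd22, Cd24a and Cd93, 5 of 8 members against 33.3% of all tested genes (16.2% higher and 17.0% lower). The median change of the 8 members was 0.135, 0.052 and -0.196 in these comparisons, beside 0.034, 0.009 and 0.011 over all tested genes. Against full-length ZNF384, TAF15-ZNF384 raised 3 members and lowered 2 (33.3% of all tested genes called, 15.4% higher and 17.9% lower), and TCF3-ZNF384 raised 3 and was called lower in 4 (45.6%, of which 22.2% higher and 23.4% lower). The 4 include Cr2, which the filter kept only through full-length ZNF384, so its call there adds nothing to the count. Between the fusions 3 of 8 members differed, all lower with TCF3-ZNF384, where 10.1% of all tested genes were called (5.91% higher and 4.17% lower). Of the 28 calls on members in the 6 comparisons, that of Cr2 included, 16 held in all 18 alternative analyses and 12 were lost in at least 1; in 20 random thinnings of every library to the depth of the shallowest, 22 of the 28 passed each time. In bulk RNA, fewer cells of a type and less RNA per cell cannot be told apart, which holds for every value below.

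**Figure D1:**
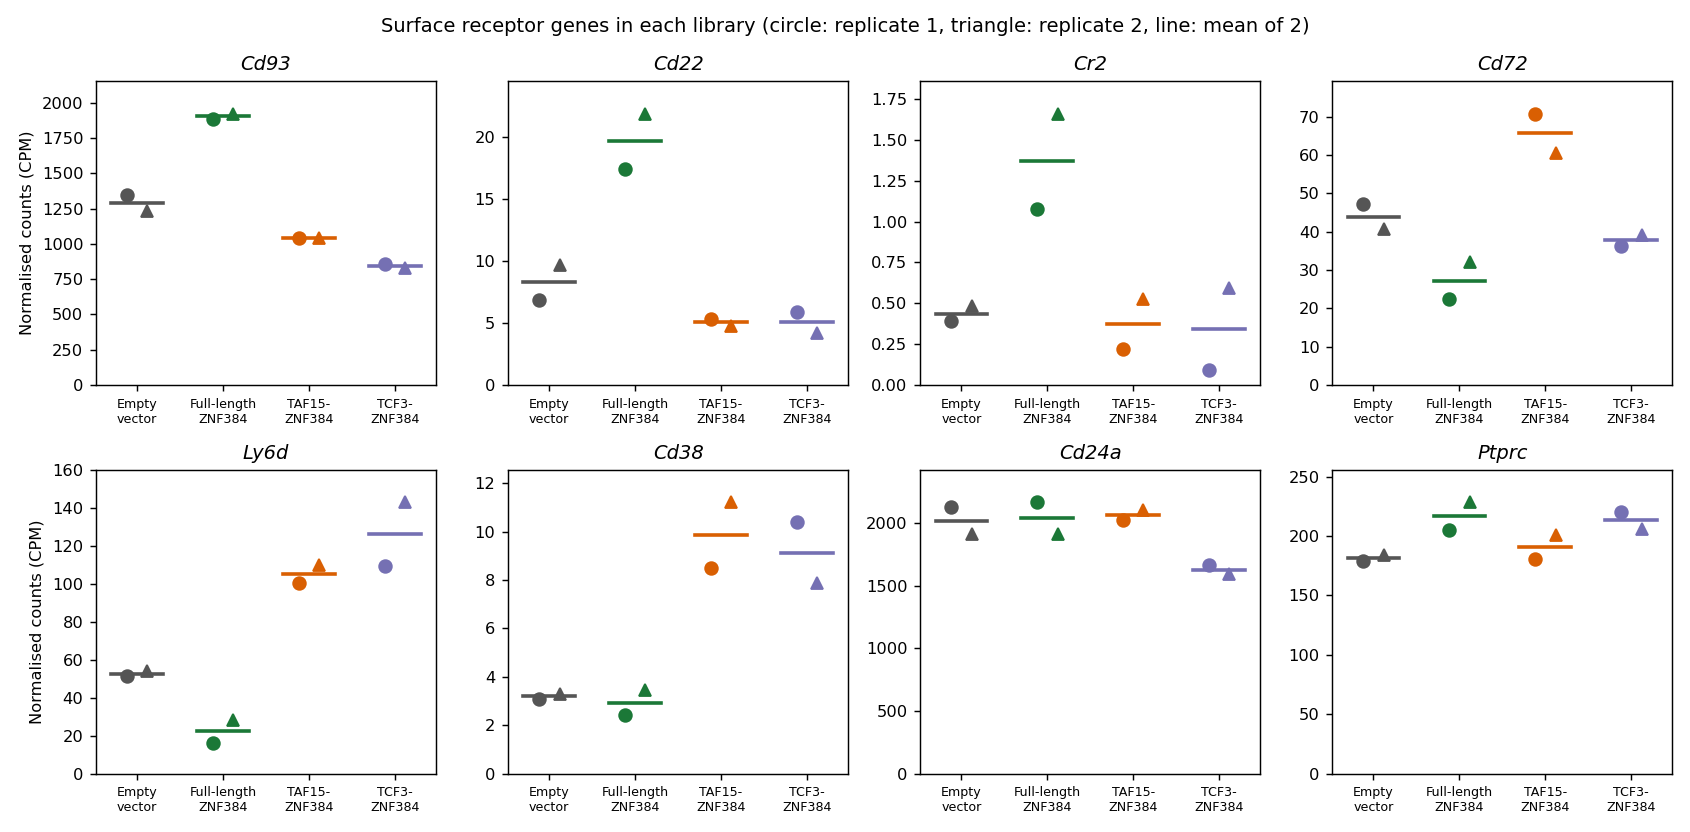
Normalised counts (CPM, vertical axes from 0) of the 8 tested genes in each of the 8 libraries, by construct; circles are replicate 1, triangles replicate 2 and lines the mean of 2. Cd93 and Cd22 were highest and Ly6d and Cd72 lowest in the full-length ZNF384 libraries, while Cd38 was at 7.86 CPM or more in the 4 fusion libraries and at 3.45 or less in the other 4.

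The inhibitory coreceptors Cd22 and Cd72 moved in opposite directions with full-length ZNF384. CD22 is a sialic acid-binding lectin (Siglec-2) that binds glycans on the same or a neighbouring cell. Its gene lies at chr7:31650421-31665361 on the minus strand (mm9). Cd22 was at 6.88 and 9.68 CPM under the empty vector, 17.4 and 21.9 after full-length ZNF384, 5.33 and 4.76 after TAF15-ZNF384, and 5.89 and 4.20 after TCF3-ZNF384. Both full-length ZNF384 libraries stood above the other 6, and both libraries of each fusion below the empty vector. Cd22 rose 2.36-fold with full-length ZNF384 (log2 1.24 ± 0.18, adjusted p = 0.000381 in edgeR). It fell by 0.75 ± 0.22 with TCF3-ZNF384 (adjusted p = 0.0173). With TAF15-ZNF384 the change was -0.71 ± 0.24 (adjusted p = 0.0673), close in size but not past the threshold. The TCF3-ZNF384 call was lost without the second empty vector library (-0.49, adjusted p = 0.169) or the second TCF3-ZNF384 library (-0.50, adjusted p = 0.233), under total-count scaling (adjusted p = 0.0696), and in 10 of 20 random thinnings of the libraries to equal depth; the TAF15-ZNF384 change passed with no filter (-0.74, adjusted p = 0.00509), in a fit of these groups alone (-0.71, adjusted p = 0.0256), without the first empty vector library (-0.95, adjusted p = 0.0416) and without either full-length ZNF384 library (adjusted p = 0.0257 and 0.0259). Against full-length ZNF384, Cd22 was lower by log2 -1.95 ± 0.22 with TAF15-ZNF384 (adjusted p = 2.65e-05) and -1.99 ± 0.21 with TCF3-ZNF384 (adjusted p = 5.07e-06). Those 2 contrasts and the rise with full-length ZNF384 held in all 18 alternatives.

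CD72 is a C-type lectin-like coreceptor with CD100 (Sema4d) as a ligand. Its gene lies at chr4:43459334-43467500 on the minus strand (mm9). Cd72 was at 47.3 and 40.6 CPM under the empty vector, 22.4 and 32.0 after full-length ZNF384, 70.8 and 60.5 after TAF15-ZNF384, and 36.4 and 39.1 after TCF3-ZNF384. The full-length ZNF384 libraries were the lowest 2 and the TAF15-ZNF384 libraries the highest 2 of the 8. Cd72 fell by 0.70 ± 0.15 with full-length ZNF384 (adjusted p = 0.00567), and the change stayed between -0.99 and -0.47 with any 1 library of the compared groups left out. It rose by 0.58 ± 0.15 with TAF15-ZNF384 (adjusted p = 0.0291), a call lost when any 1 of the empty vector or TAF15-ZNF384 libraries was left out (changes of 0.45 to 0.69, adjusted p 0.0536 to 0.239) and passed in 17 of 20 thinnings. With TCF3-ZNF384 the change was -0.22 ± 0.15 (adjusted p = 0.3). The fusions differed from each other in Cd72 by -0.80 ± 0.16 for TCF3-ZNF384 against TAF15-ZNF384 (adjusted p = 0.0057), lost without the first TAF15-ZNF384 library (-0.68, adjusted p = 0.0668) or the first TCF3-ZNF384 library (-0.74, adjusted p = 0.0694). Against full-length ZNF384, Cd72 was higher by 1.28 ± 0.16 with TAF15-ZNF384 (adjusted p = 6.64e-05) and by 0.49 ± 0.15 with TCF3-ZNF384 (adjusted p = 0.0211), the latter lost without the first full-length ZNF384 library (0.26, adjusted p = 0.119) or the second TCF3-ZNF384 library (0.44, adjusted p = 0.129) and passed in 15 of 20 thinnings.

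Part of the Cd72 signal may not be assigned with certainty. The 3′ part of the annotated gene overlaps Tesk1, which encodes a testis-associated kinase and is read from the other strand, and 1423 of Cd72's 3422 exonic bases are exonic in both. The kit keeps strand, but whether the counting used it is not given in the sources used here. Tesk1 was at 23.3 to 60 CPM and moved by -0.86 with full-length ZNF384 (adjusted p = 0.000242), 0.37 with TAF15-ZNF384 (adjusted p = 0.0633) and 0.03 with TCF3-ZNF384 (adjusted p = 0.892). Against full-length ZNF384 it was higher by 1.23 with TAF15-ZNF384 (adjusted p = 9.38e-06) and by 0.88 with TCF3-ZNF384 (adjusted p = 5.66e-05), and between the fusions it was at -0.34 (adjusted p = 0.094). Except for TCF3-ZNF384 against the empty vector, these changes have the sign of those of Cd72, and the part of Tesk1 in the Cd72 values was not tested.

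The promoter windows of Cd22, Cd72, Cr2 and Cd38, 4 members with changes or low levels described here, are printed to show the sequence in front of each start. They run from 250 bases before to 50 after the RefSeq start on GRCm38.p6, 5′ to 3′ on the gene's strand: Cd22 at chr7:30878979-30879278 (minus), Cd72 at chr4:43454577-43454876 (minus), Cr2 at chr1:195176670-195176969 (minus) and Cd38 at chr5:43868559-43868858 (plus). Of the 9 members, 5 matched an entry by symbol. Capitals mark matches to the E-box CANNTG, the general letters bound by E proteins such as TCF3, and, once in the Cd22 window, to the palindromic half-site pair bound by EBF1, searched on both strands (a palindrome is counted once).
Cd22: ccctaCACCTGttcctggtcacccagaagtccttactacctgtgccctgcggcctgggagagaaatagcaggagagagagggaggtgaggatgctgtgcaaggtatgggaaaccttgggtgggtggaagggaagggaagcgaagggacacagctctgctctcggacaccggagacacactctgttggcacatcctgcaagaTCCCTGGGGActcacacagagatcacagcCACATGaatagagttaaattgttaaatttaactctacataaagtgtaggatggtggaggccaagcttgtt
Cd72: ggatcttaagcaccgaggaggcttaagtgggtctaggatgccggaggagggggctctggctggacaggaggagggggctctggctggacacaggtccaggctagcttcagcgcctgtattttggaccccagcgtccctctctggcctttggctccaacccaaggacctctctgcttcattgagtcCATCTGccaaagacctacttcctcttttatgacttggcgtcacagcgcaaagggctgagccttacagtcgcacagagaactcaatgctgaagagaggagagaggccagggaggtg
Cr2: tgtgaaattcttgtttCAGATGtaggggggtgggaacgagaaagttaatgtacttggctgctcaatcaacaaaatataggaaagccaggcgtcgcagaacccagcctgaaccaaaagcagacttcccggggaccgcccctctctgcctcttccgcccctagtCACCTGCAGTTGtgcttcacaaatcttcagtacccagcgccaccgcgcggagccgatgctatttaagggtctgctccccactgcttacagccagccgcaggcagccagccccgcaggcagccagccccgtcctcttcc
Cd38: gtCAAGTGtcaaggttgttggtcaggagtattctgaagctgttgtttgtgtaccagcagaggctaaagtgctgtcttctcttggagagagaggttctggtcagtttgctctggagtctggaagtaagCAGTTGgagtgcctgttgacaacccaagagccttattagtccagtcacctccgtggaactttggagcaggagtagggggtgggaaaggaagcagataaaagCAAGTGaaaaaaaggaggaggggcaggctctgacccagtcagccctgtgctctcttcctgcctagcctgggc
The Cd22 window held 2 E-box matches, starting 245 and 20 bases before the start, the first also a CACCTG (a form of CANNTG, so the 2 searches overlap), and 1 match to the EBF1 form starting 49 bases before it. The Cd72 window held 1 E-box match, at 65 bases before the start, and the Cd38 window 3, at 248, 123 and 22. The Cr2 window also held 3, at 234, 88 and 82, of which the middle one was a CACCTG. The run AAAAAA was also searched on both strands and is not marked. It had 2 overlapping matches in the Cd38 window and 0 in those of Cd22, Cd72 and Cr2. Over all 32851 windows of this length in the table, 72.3% held CANNTG, 20.2% CACCTG or its reverse complement CAGGTG, 0.904% the EBF1 form and 19.2% AAAAAA. A match is a description of letters and not a measured site; no binding was measured here.

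Of 16 further genes of the inhibitory pathway, 14 were tested. With full-length ZNF384, 1 rose and 2 fell (median change 0.082), where 20.6% of all tested genes were called. Cmah, which makes the sialic acid form preferred by mouse CD22, rose by 0.74 ± 0.14 (adjusted p = 0.00205) from 20.7 to 34.7 CPM. Dok3, an inhibitory adaptor, fell by 0.73 ± 0.15 (adjusted p = 0.00421), and Sema4d by 0.40 ± 0.12 (adjusted p = 0.029), the last lost without the second empty vector library (adjusted p = 0.281) or the first full-length ZNF384 library (adjusted p = 0.0876). With TAF15-ZNF384, 2 rose and none fell at this threshold (median 0.121), against 11.0% of all tested genes. Pecam1 (CD31), an inhibitory receptor, went from 28.3 to 48.6 CPM (0.78 ± 0.11, adjusted p = 0.00061), and St6gal1, which makes the sialylated glycans that CD22 binds, from 29.3 to 44.7 (0.61 ± 0.13, adjusted p = 0.0105), a call lost without any 1 library of either group (adjusted p 0.0581 to 0.0922). With TCF3-ZNF384, 5 rose and 3 fell (median 0.213), against 33.3% of all tested genes. Pecam1 rose by 0.94 ± 0.11 (adjusted p = 2.3e-05), St6gal1 by 0.75 ± 0.13 (adjusted p = 0.000622) and Syk, the kinase that inhibitory receptors oppose, by 0.48 ± 0.11 (adjusted p = 0.00488). Ptpn6 (SHP-1), the phosphatase recruited by CD22 and CD72, fell by 0.78 ± 0.17, from 17 to 9.81 CPM (adjusted p = 0.00255). Cmah fell by 0.63 ± 0.15 with TCF3-ZNF384 (adjusted p = 0.00586), lost without the first TCF3-ZNF384 library (-0.53, adjusted p = 0.0641). The genes of this pathway therefore did not move in 1 direction: with TCF3-ZNF384 the lectin Cd22, the phosphatase Ptpn6 and Cmah were lower and the sialyltransferase St6gal1 higher. The list median of 0.213 stands beside 0.011 over all tested genes.

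**Figure D2:**
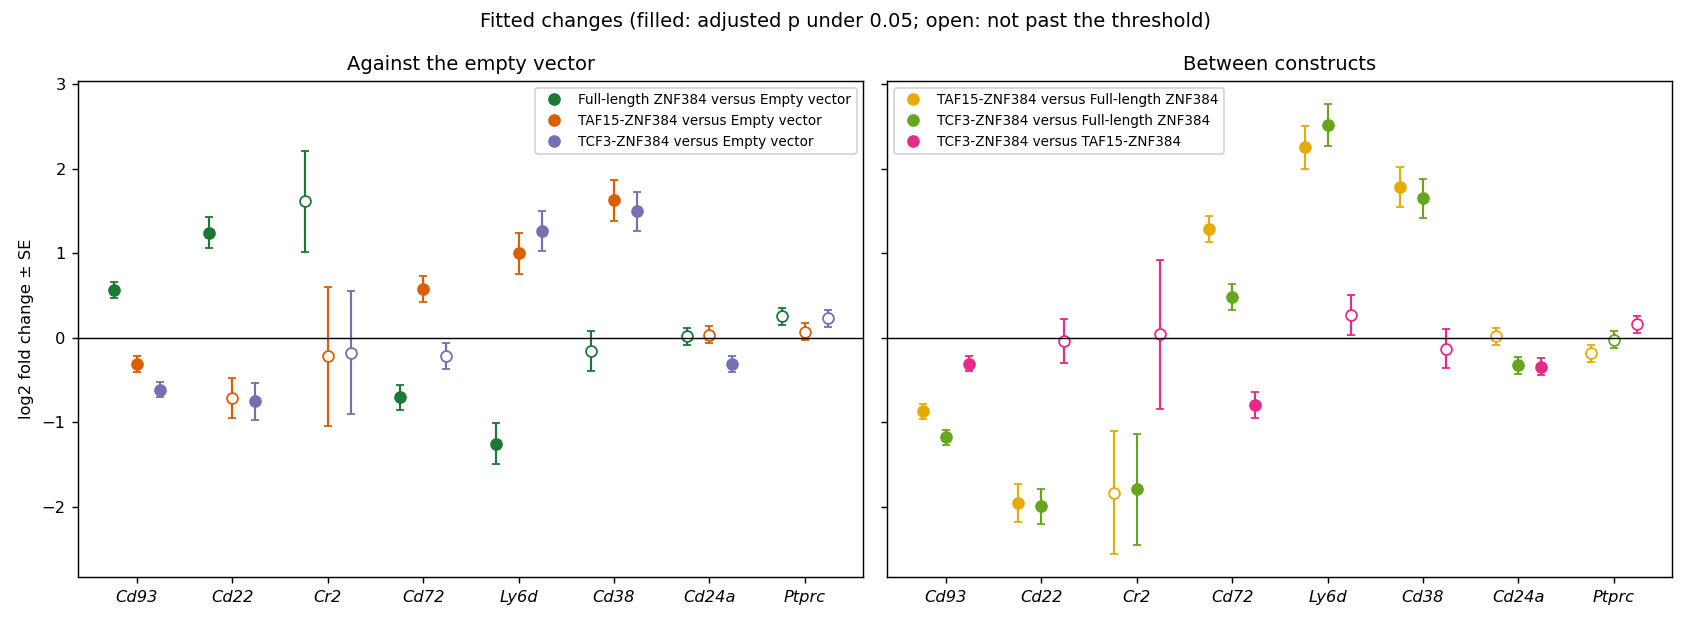
Fitted log2 fold changes ± SE of the 8 tested genes, against the empty vector (left) and between constructs (right); filled points have an adjusted p under 0.05. Cd38 lay at 1.62 and 1.49 for the fusions and at -0.15 for full-length ZNF384, and Ly6d at 1.00, 1.26 and -1.25.

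The complement receptor gene Cr2 was barely expressed, and Ms4a1 was at or near 0 in every library. Cr2 (chr1:196963005-197002909, minus strand, mm9) was at 0.391 and 0.484 CPM under the empty vector, 1.08 and 1.66 after full-length ZNF384, 0.218 and 0.529 after TAF15-ZNF384, and 0.092 and 0.592 after TCF3-ZNF384. These levels rest on 10 and 12, 47 and 38, 2 and 5, and 1 and 11 reads. Both full-length ZNF384 libraries were above the other 6. Both reached the filter level of 0.524 CPM, as did 1 TCF3-ZNF384 library but no empty vector or TAF15-ZNF384 library. The filter asks for 2 libraries, so Cr2 would not have passed without full-length ZNF384. A gene kept in this way had to be high there. The change with full-length ZNF384 was 1.61 ± 0.60 (adjusted p = 0.0685), past the threshold with the replicate number as a block (adjusted p = 0.0389), with no filter (adjusted p = 0.0433) and in a fit of these groups alone (adjusted p = 0.0457). For the same reason the difference of -1.79 ± 0.66 for TCF3-ZNF384 against full-length ZNF384 (adjusted p = 0.037) is a description only. It was lost in DESeq2 (adjusted p = 0.103), under total-count scaling (adjusted p = 0.0593), and without the second full-length ZNF384 library (-1.46, adjusted p = 0.137) or the first TCF3-ZNF384 library (-1.16, adjusted p = 0.231); without the second TCF3-ZNF384 library the change was -3.78. After thinning, Cr2 stayed in the tested set in 12 of 20 draws, and this call passed in 6 of them. With TAF15-ZNF384 against full-length ZNF384 it was -1.83 ± 0.73 (adjusted p = 0.065), and -1.90 with the replicate block (adjusted p = 0.0379). For the fusions against the empty vector the changes were -0.22 ± 0.82 and -0.18 ± 0.73, too wide at this depth to detect a difference.

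Ms4a1 (chr19:11324654-11340669, minus strand, mm9) had a total of 1 read in the 8 libraries, in the first TAF15-ZNF384 library (0.109 CPM). A count of 0 over a group allows up to 0.0596 CPM for the empty vector, 0.0451 for full-length ZNF384 and 0.102 for TCF3-ZNF384 (3 counts over the group, counting error only). None of 16 MS4A family genes passed the filter, and 9 were at 0 in every library. The mature B cell gene Fcer2a (CD23) was at 0.109 CPM or less.

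Of 9 genes of the B cell coreceptor, in which CR2 takes part, and of the antigen receptor, all tested, 1 rose and none fell past the threshold with full-length ZNF384, and likewise with TAF15-ZNF384, where 20.6% and 11.0% of all tested genes were called. These were Ifitm1, an interferon-induced membrane protein (0.95 ± 0.28, adjusted p = 0.0254, lost without the second empty vector library at 0.75, adjusted p = 0.216), and Cd81, a tetraspanin of the coreceptor (0.44 ± 0.13, adjusted p = 0.0485, lost without any 1 library of the 4 compared, adjusted p 0.0751 to 0.385). With TCF3-ZNF384, 2 rose and 2 fell, against 33.3% of all tested genes. Among the rises, the adaptor Blnk went from 41.9 to 121 CPM (1.53 ± 0.27, adjusted p = 0.00546). Ifitm1 and Pik3ap1, an adaptor for PI 3-kinase, fell by 1.10 ± 0.35 and 0.47 ± 0.16 (adjusted p = 0.0259 and 0.0407). The Ifitm1 fall was lost without the first empty vector library (adjusted p = 0.16) or the first TCF3-ZNF384 library (adjusted p = 0.176), and that of Pik3ap1 without any 1 of the 4 libraries compared (adjusted p 0.0646 to 0.243).

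Of the early stage antigens, Cd93 and Ly6d changed in opposite directions with each construct. CD93 is a C-type lectin-like glycoprotein (AA4.1) carried by B cell precursors and immature B cells. Its gene lies at chr2:148262376-148269299 on the minus strand (mm9). Cd93 was at 1345 and 1234 CPM under the empty vector, 1887 and 1922 after full-length ZNF384, 1042 and 1041 after TAF15-ZNF384, and 855 and 831 after TCF3-ZNF384. No group overlapped another, and the order ran from full-length ZNF384 through the empty vector and TAF15-ZNF384 to TCF3-ZNF384. Cd93 rose by 0.56 ± 0.09 with full-length ZNF384 (1.48-fold, adjusted p = 0.000754) and fell by 0.61 ± 0.09 with TCF3-ZNF384 (adjusted p = 0.000166), and both changes held in all 18 alternatives. It fell by 0.31 ± 0.09 with TAF15-ZNF384 (adjusted p = 0.044), close to the threshold: the call was lost without any 1 of the 4 libraries compared (-0.37 to -0.25, adjusted p 0.109 to 0.315), without either TCF3-ZNF384 library, under total-count scaling (-0.20, adjusted p = 0.111) and it passed in 12 of 20 thinnings. The step from TAF15-ZNF384 to TCF3-ZNF384 was -0.31 ± 0.09 (adjusted p = 0.0485) and was likewise lost without any 1 of the 4 libraries compared (adjusted p 0.222 to 0.268), without either empty vector library, and with no filter (adjusted p = 0.0953). Between full-length ZNF384 and the fusions it was -0.87 ± 0.09 for TAF15-ZNF384 (adjusted p = 1.38e-05) and -1.18 ± 0.09 for TCF3-ZNF384 (adjusted p = 3.32e-07), both kept in every alternative.

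LY6D is a small GPI-anchored protein that marks early B lineage stages. Its gene lies at chr15:74592486-74593997 on the minus strand (mm9). Ly6d was at 51.4 and 54.1 CPM under the empty vector, 16.4 and 28.6 after full-length ZNF384, 101 and 110 after TAF15-ZNF384, and 110 and 143 after TCF3-ZNF384. The 4 fusion libraries were all above the empty vector and the 2 full-length ZNF384 libraries below it. Ly6d fell by 1.25 ± 0.24 with full-length ZNF384 (adjusted p = 0.0106), a call just lost without the second empty vector library (-1.21, adjusted p = 0.0502). It rose by 1.26 ± 0.24 with TCF3-ZNF384 (adjusted p = 0.00523), kept in all 18 alternatives. With TAF15-ZNF384 it rose by 1.00 ± 0.24 (adjusted p = 0.0391), lost without any 1 of the 4 libraries compared (0.92 to 1.05, adjusted p 0.118 to 0.165) and under total-count scaling (1.11, adjusted p = 0.0683), and it passed in 13 of 20 thinnings. Against full-length ZNF384 Ly6d was higher 4.76-fold with TAF15-ZNF384 (2.25 ± 0.25, adjusted p = 0.000472) and 5.72-fold with TCF3-ZNF384 (2.52 ± 0.25, adjusted p = 0.000133). These were the widest differences of any member between constructs, and both held in every alternative.

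The LY6 family lists 20 genes, of which 5 were tested. With full-length ZNF384, Ly6d was the 1 that changed. With each fusion 3 of 5 rose, Ly6d, Ly6e and Lynx1, and none fell at this threshold; 5.01% of all tested genes rose with TAF15-ZNF384 and 16.2% with TCF3-ZNF384, and Ly6d is itself on the list. Ly6e, a GPI-anchored gene also carried by haematopoietic progenitors, went from 46 to 71.8 CPM with TAF15-ZNF384 (0.64 ± 0.13, adjusted p = 0.00674) and to 148 with TCF3-ZNF384 (1.68 ± 0.13, adjusted p = 3.68e-07). The first of these was lost without the first empty vector library (0.50, adjusted p = 0.104) or the first TAF15-ZNF384 library (0.58, adjusted p = 0.0995). Lynx1, known as a modulator of nicotinic receptors, lies 9077 bases from Ly6d in mm9. It went from 6.44 to 22 CPM with TAF15-ZNF384 (1.77 ± 0.17, adjusted p = 1.97e-05) and to 35.2 with TCF3-ZNF384 (2.45 ± 0.16, adjusted p = 7.34e-08). With full-length ZNF384, in which Ly6d fell, the change of Lynx1 was -0.20 (adjusted p = 0.446).

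CD24 is a GPI-anchored sialoglycoprotein carried by B cell precursors. Cd24a (chr10:43298975-43304068, plus strand, mm9) was at 2127 and 1912 CPM under the empty vector, 2167 and 1915 after full-length ZNF384, 2029 and 2105 after TAF15-ZNF384, and 1663 and 1594 after TCF3-ZNF384. The first 3 groups overlapped, and both TCF3-ZNF384 libraries were below all others. Cd24a fell by 0.31 ± 0.10 with TCF3-ZNF384 against the empty vector (adjusted p = 0.0276), by 0.33 ± 0.10 against full-length ZNF384 (adjusted p = 0.0162) and by 0.34 ± 0.10 against TAF15-ZNF384 (adjusted p = 0.0431). Each of these calls was lost when single libraries were left out. The first was lost without either empty vector, TAF15-ZNF384 or TCF3-ZNF384 library (adjusted p 0.0549 to 0.235). The second was lost without the first full-length ZNF384 library (-0.22, adjusted p = 0.0593) or either TCF3-ZNF384 library (adjusted p = 0.0777 and 0.141), and the third without any library of the empty vector or of either fusion (adjusted p 0.078 to 0.296). Under total-count scaling the first 2 changes were -0.17 (adjusted p = 0.0878) and -0.16 (adjusted p = 0.0946). The other changes were 0.02 ± 0.10 with full-length ZNF384 (adjusted p = 0.934) and 0.03 ± 0.10 with TAF15-ZNF384 (adjusted p = 0.866). The Cd24a transcript has 2 other matches in mm9 at 95% identity or more, the best over 1329 bases of 1813, so its counts are uncertain: how the authors' counting shared such reads is not given in the sources used here.

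Cd38 was raised by both fusions and showed no change past the threshold with full-length ZNF384. CD38 turns NAD into ADP-ribose and cyclic ADP-ribose at the cell surface. Its gene lies at chr5:44260048-44303614 on the plus strand (mm9). Cd38 was at 3.09 and 3.31 CPM under the empty vector, 2.43 and 3.45 after full-length ZNF384, 8.48 and 11.2 after TAF15-ZNF384, and 10.4 and 7.86 after TCF3-ZNF384. The fusion libraries overlapped each other and all lay above the other 4, which also overlapped. Cd38 rose 3.08-fold with TAF15-ZNF384 (1.62 ± 0.24, adjusted p = 0.00061) and 2.82-fold with TCF3-ZNF384 (1.49 ± 0.23, adjusted p = 0.000223). Against full-length ZNF384 the changes were 1.78 ± 0.24 (adjusted p = 9.62e-05) and 1.65 ± 0.23 (adjusted p = 6.02e-05), and all 4 calls held in every alternative. With full-length ZNF384 against the empty vector the change was -0.15 ± 0.24 (adjusted p = 0.69), and between the fusions -0.13 ± 0.23 (adjusted p = 0.794).

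Of 10 genes of NAD turnover, 7 were tested. Against the empty vector, 2 rose with full-length ZNF384, 1 fell with TAF15-ZNF384, and 1 rose and 2 fell with TCF3-ZNF384. In these comparisons 20.6%, 11.0% and 33.3% of all tested genes were called. Bst1 (CD157), the paralog of Cd38 with the same kind of enzyme activity, lies 25538 bases before it in mm9. Its change with full-length ZNF384 was 1.52 ± 0.36 (2.44 to 7.19 CPM, adjusted p = 0.012), lost without the first or second empty vector library (adjusted p = 0.0775 and 0.0649), in limma-voom (adjusted p = 0.106) and in a fit of these groups alone (adjusted p = 0.0942). With the fusions, in which Cd38 rose, the changes of Bst1 were 0.62 (adjusted p = 0.385) and -0.09 (adjusted p = 0.899). Nampt, the rate-limiting enzyme of NAD salvage, was called in all 3 comparisons with the empty vector. It rose by 0.46 ± 0.12 with full-length ZNF384 (adjusted p = 0.0126) and fell by 0.51 ± 0.12 with TAF15-ZNF384 (adjusted p = 0.0158) and 0.48 ± 0.12 with TCF3-ZNF384 (adjusted p = 0.00643). The full-length ZNF384 call was lost without either empty vector library (adjusted p = 0.0535 and 0.131), the TAF15-ZNF384 call without any 1 of the 4 libraries compared (adjusted p 0.0567 to 0.162), and the TCF3-ZNF384 call without the first empty vector library (adjusted p = 0.0568) or the second TCF3-ZNF384 library (adjusted p = 0.0998). With TCF3-ZNF384 the 1 rise was Nadk, an NAD kinase (0.40 ± 0.12, adjusted p = 0.0234). The other fall was Parp1, a nuclear enzyme that consumes NAD (1440 to 1120 CPM, adjusted p = 0.0118). The Nadk call was lost without any 1 of the 4 libraries compared (adjusted p 0.0642 to 0.162), and that of Parp1 without the first empty vector library (adjusted p = 0.11) or either TCF3-ZNF384 library (adjusted p = 0.0897 and 0.0809).

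Ptprc passed the threshold in none of the 6 comparisons in edgeR, and in none by DESeq2 or limma-voom; 2 had an unadjusted p under 0.05, 0.0215 for full-length ZNF384 and 0.0351 for TCF3-ZNF384 against the empty vector. CD45 removes the inhibitory phosphate from SRC family kinases. Ptprc (chr1:139959438-140071882, minus strand, mm9) was at 179 and 184 CPM under the empty vector, 205 and 228 after full-length ZNF384, 181 and 201 after TAF15-ZNF384, and 220 and 206 after TCF3-ZNF384. Both full-length ZNF384 and both TCF3-ZNF384 libraries were above the empty vector, while TAF15-ZNF384 overlapped it. The changes were 0.26 ± 0.10 (adjusted p = 0.0836), 0.07 ± 0.10 (adjusted p = 0.701) and 0.23 ± 0.10 (adjusted p = 0.088), so differences of this size were not settled. The first passed without the first full-length ZNF384 library (0.32, adjusted p = 0.0122). The last passed under total-count scaling (0.37, adjusted p = 0.0108), in a fit of these groups alone (adjusted p = 0.0164) and without either full-length ZNF384 library (0.23, adjusted p = 0.0122 in both). Between TAF15-ZNF384 and full-length ZNF384 the change was -0.19 ± 0.10 (adjusted p = 0.168), past the threshold without the first full-length ZNF384 library (-0.24, adjusted p = 0.0457). The counts are summed over isoforms, and the CD45 splice forms that B cells use were not resolved.

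Of 10 genes that work with CD45, 8 were tested: 1 rose and 1 fell with full-length ZNF384, 3 fell with TAF15-ZNF384, and 1 rose and 6 fell with TCF3-ZNF384, with medians of 0.019, -0.169 and -0.443. The shares of all tested genes called were 20.6%, 11.0% and 33.3% in these comparisons. Blk, a SRC family kinase of the B lineage, was at a mean of 425 CPM under the empty vector, 372 after full-length ZNF384, 188 after TAF15-ZNF384 and 113 after TCF3-ZNF384. It fell by 1.18 ± 0.10 (adjusted p = 1.2e-05) and 1.90 ± 0.11 (adjusted p = 2.18e-08) with the 2 fusions. Pag1, an adaptor that brings the opposing kinase CSK to the membrane, rose from 247 to 474 CPM with full-length ZNF384 (0.94 ± 0.09, adjusted p = 1.77e-05). It fell to 182 CPM with TAF15-ZNF384 (adjusted p = 0.00908), a call lost without any 1 of the 4 libraries compared (adjusted p 0.0547 to 0.122). Hnrnpll, which directs the skipping of variable Ptprc exons in T and plasma cells, fell from 118 to 80 CPM with TCF3-ZNF384 (0.56 ± 0.10 on the log2 scale, adjusted p = 0.000796). The kinase Fyn fell by 0.63 ± 0.12 with TCF3-ZNF384 (adjusted p = 0.00128). It also fell by 0.52 with TAF15-ZNF384 (adjusted p = 0.0172) and by 0.34 with full-length ZNF384 (adjusted p = 0.0487). These 2 calls were lost without any 1 of the 4 libraries compared, except that the second held without the second full-length ZNF384 library. The TAF15-ZNF384 call was lost in 6 of the 18 alternatives, with changes of -0.58 to -0.41. For full-length ZNF384 the call was lost in 11 of 18, with changes of -0.50 to -0.22. Among these were DESeq2 (adjusted p = 0.144), a fit of these groups alone (adjusted p = 0.0865) and total-count scaling (adjusted p = 0.0726). Lgals1, a lectin that binds CD45 glycans, was the 1 rise with TCF3-ZNF384, from 0.534 to 1.87 CPM (adjusted p = 0.0351), lost without any 1 of the 4 libraries compared (adjusted p 0.0535 to 0.232).

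**Figure D3:**
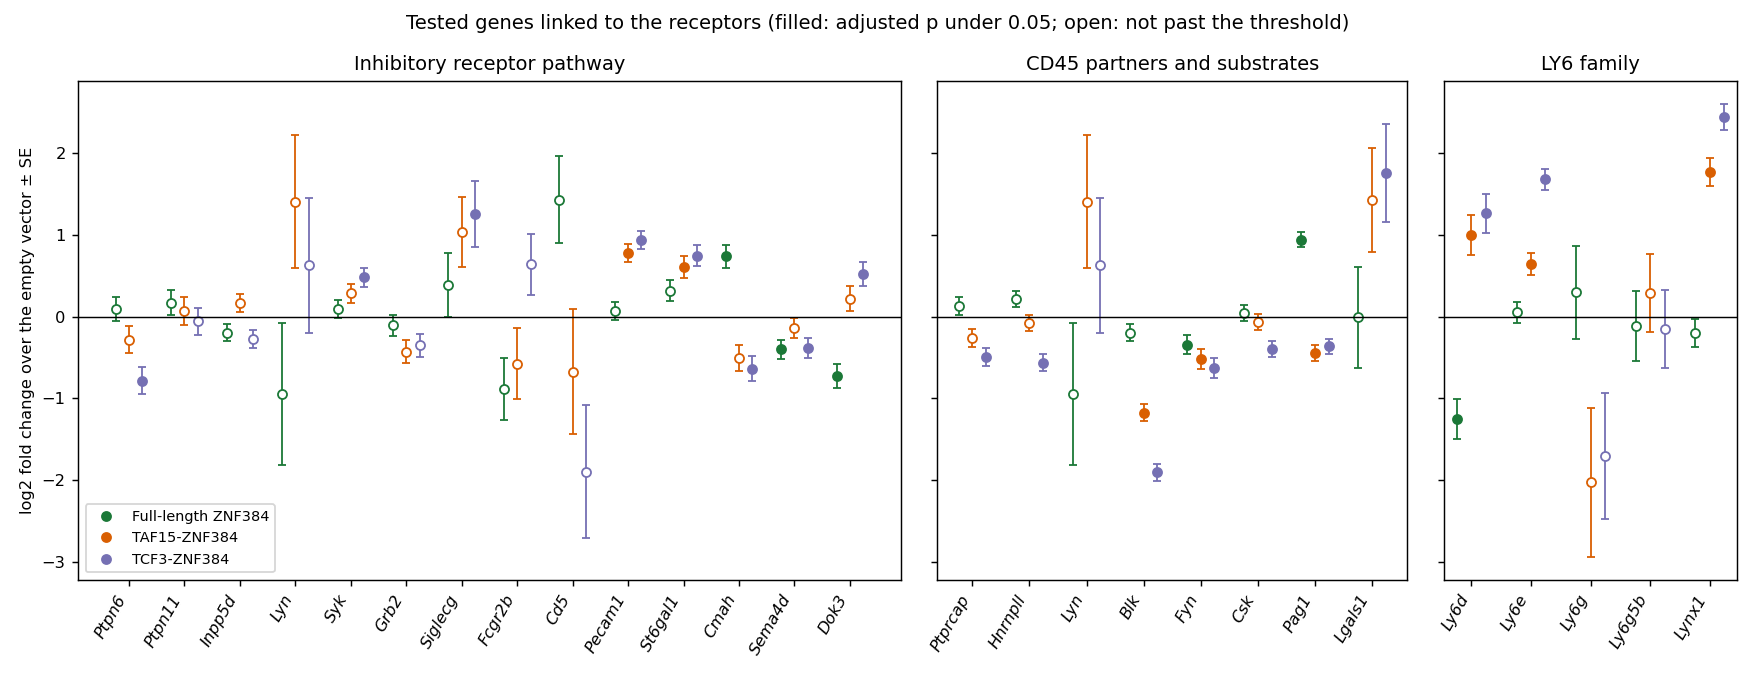
Log2 fold changes over the empty vector ± SE of tested genes linked to Cd22 and Cd72, to CD45 (Ptprc) and to Ly6d, by construct; filled points have an adjusted p under 0.05. Blk lay at -1.18 and -1.90 with the fusions, Pag1 at 0.94 with full-length ZNF384, and Ly6e and Lynx1 at 1.68 and 2.45 with TCF3-ZNF384.

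Per length, the 9 members spanned a wide range in these cells. On a scale of CPM per kilobase of exon (RPKM), group means of Cd24a were 898 to 1140, of Cd93 126 to 285 and of Ly6d 32.5 to 183. Ptprc lay at 31.2 to 37.3 RPKM, Cd72 at 7.95 to 19.2, Cd22 at 1.17 to 4.55 and Cd38 at 0.976 to 3.27. Cr2 reached 0.187 RPKM at most, and Ms4a1 0.0215 in the 1 group with a read. Cd24a was highest in every group. The order of the neighbouring genes depended on the construct: Ly6d was above Ptprc with the empty vector (76.3 and 31.2 RPKM) and below it with full-length ZNF384 (32.5 and 37.3), and Cd38 was below Cd22 with the empty vector and full-length ZNF384 and above it with both fusions (3.27 and 1.17 with TAF15-ZNF384). With TCF3-ZNF384, Ly6d (183 RPKM) lay above Cd93 (126). Levels between genes were not tested.

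**Figure D4:**
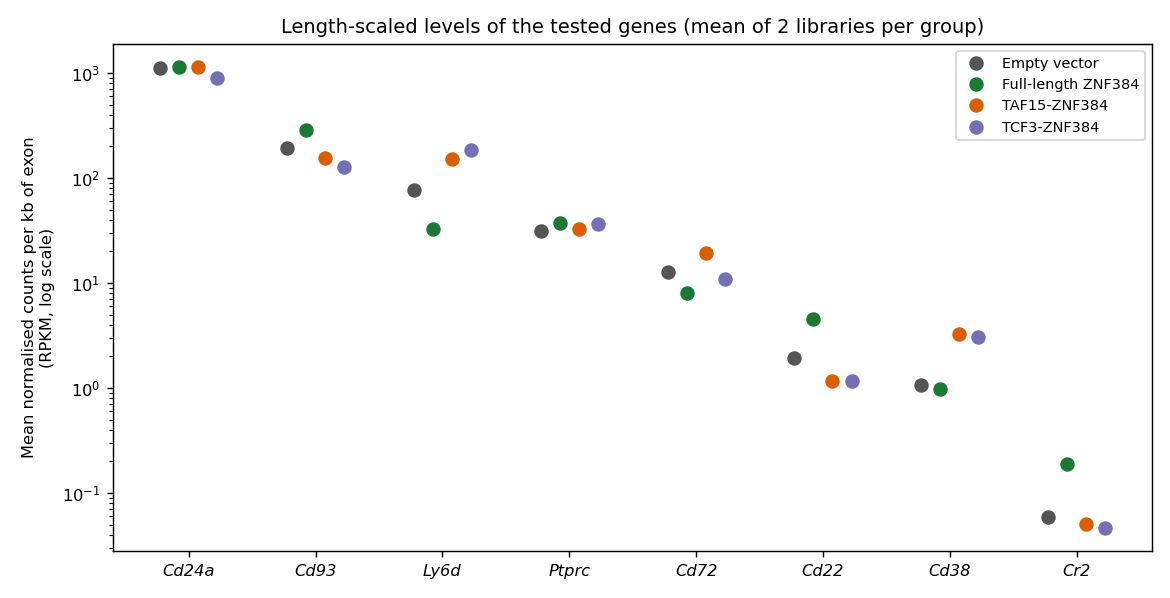
Mean RPKM of 2 libraries per group for the 8 tested genes (log axis), by construct. Cd24a lay at 898 to 1140 and Cr2 under 0.2, and Ly6d ranged from 32.5 with full-length ZNF384 to 183 with TCF3-ZNF384.

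The 2 genes closest in pattern to each member were taken by Pearson's r of log2 CPM over the 8 libraries, among 8581 genes with a mean of at least 5 CPM. The 8 libraries form 4 groups, so these r values follow the group means and are descriptions. Cd93 was closest to Kbtbd11 (r = 0.998) and Bcl2 (r = 0.996); Bcl2, which protects cells from apoptosis, was at 164 CPM under the empty vector, 371 after full-length ZNF384, 95 after TAF15-ZNF384 and 51 after TCF3-ZNF384. Cd22 was closest to Dhcr7 (r = 0.982) and Cyp51 (r = 0.980), both enzymes of cholesterol synthesis; Dhcr7 was at 29.9, 57.5, 19.6 and 20.2 CPM in the same order. Ly6d was closest to Btg2 (r = 0.990), an antiproliferative gene at 297, 123, 467 and 636 CPM, and to Abtb1 (r = 0.990). Cd38 was closest to the tetraspanin Cd151 (r = 0.987) and the collagenase Mmp13 (r = 0.981), which was at 75.6, 65.8, 277 and 275 CPM. For Cd72 these were Samd5 and Osbpl8 (r = 0.995 and 0.993), for Cd24a Tceb2 and Cd9 (0.985 and 0.971), for Ptprc Camsap2, the second of its pair (0.954), and for Cr2, whose low counts make r unstable, Pot1b and Preb (0.937 and 0.923).

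Taking 2 protein-coding genes on each side of the members on the chromosome gave 34 neighbours, of which 15 were tested; 5 rose and 2 fell with full-length ZNF384, 1 rose and 1 fell with TAF15-ZNF384, and 3 rose and 2 fell with TCF3-ZNF384, where 20.6%, 11.0% and 33.3% of all tested genes were called. Against full-length ZNF384, 1 was higher and 5 lower with TAF15-ZNF384 (33.3% of all tested genes called, 17.9% as lower), and 3 were higher and 10 lower with TCF3-ZNF384 (45.6%, of which 23.4% lower). Between the fusions 2 were higher and 2 lower with TCF3-ZNF384 (10.1%). Ffar1, a fatty acid receptor gene 3932 bases from Cd22, rose by 1.11 with full-length ZNF384 (adjusted p = 0.0104), as Cd22 did; this was lost without the first empty vector library (0.98, adjusted p = 0.0856) and in DESeq2 (adjusted p = 0.0555).

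A further list of 45 surface genes of B cell stages, of which 32 were tested, gives the setting for these receptors. With full-length ZNF384, 7 rose and 7 fell (median 0.049), against 20.6% of all tested genes. Cd52 went from 36.7 to 71.8 CPM (0.97 ± 0.11, adjusted p = 4.62e-05) and Cd47, a signal against phagocytosis, from 69.9 to 109. The activation antigen Cd69 fell from 230 to 65.4 CPM (1.82 ± 0.13 on the log2 scale, adjusted p = 1.79e-06), and the chemokine receptors Ccr7 and Cxcr4 from 217 to 78.2 and from 145 to 80.5. With TAF15-ZNF384, where 11.0% of all tested genes were called, 5 rose and 9 fell (median -0.209), among them Cd180, a toll-like receptor homologue, up from 0.876 to 3.76 CPM, and Enpep (BP-1), a pre-B aminopeptidase, down from 478 to 273. With TCF3-ZNF384, 8 rose and 11 fell (median -0.258), against 33.3% of all tested genes. Il2ra (CD25), a marker of small pre-B cells, went from 11.6 to 168 CPM (3.85 ± 0.25, adjusted p = 9.19e-06) and the complement regulator Cd55 from 8.33 to 27.9, while Enpep fell to 160 and Slamf6 from 85.9 to 39.3. Every gene named in this paragraph kept its call in all 18 alternatives.

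Markers of other cell types were measured beside these values. T and NK cell markers summed to 366 to 508 CPM, nearly all of it Lat, which was at 365 to 507, while Cd8a was at 0. Plasmacytoid dendritic markers summed to 36.3 to 145 CPM, mostly Tcf4, and Siglech stayed at 0.184 or less. Erythroid and megakaryocyte markers summed to 3.58 to 6.74 CPM with Ppbp at 0, and stromal markers to 0.504 to 3.04 with Dcn at 0. With TCF3-ZNF384 against the empty vector, 1 rose and 1 fell of 3 tested T and NK genes and of 4 tested plasmacytoid genes. Of 3 tested erythroid and 3 tested stromal genes, 1 rose in each, where 33.3% of all tested genes were called. The rises of Klrb1c (0.0391 to 0.815 CPM), Epor (0.0196 to 1.32) and Lum (0 to 0.745) are descriptions only. For these no group but TCF3-ZNF384 had both libraries over the filter level. Tcf4 rose, Lat fell, and Cox6a2 fell from 2.5 to 0.476 CPM. Mature B and plasma cell markers, mostly Ccr7 and Sdc1, summed to 257 and 268 CPM under the empty vector, 151 and 160 after full-length ZNF384, 148 and 162 after TAF15-ZNF384, and 173 and 178 after TCF3-ZNF384. Of their 7 tested genes, 1 rose and 2 fell with full-length ZNF384, 2 fell with TAF15-ZNF384, and 1 rose and 3 fell with TCF3-ZNF384. The shares of all tested genes called in these comparisons were 20.6%, 11.0% and 33.3%. With full-length ZNF384 Sdc1 (CD138) rose from 27.6 to 57.3 CPM, while Ccr7 fell from 217 to 78.2. The other call was Cd40, at a mean of 0.795 under the empty vector and 0.0218 with full-length ZNF384. For Cd40 no group but the empty vector had both libraries over the filter level of 0.524 CPM. A gene kept in this way had to be high there, so the Cd40 fall is a description only and adds nothing to the count. With TCF3-ZNF384 Prdm1 rose from 0.676 to 4.62 CPM. Itgam (CD11b), of the myeloid list, was at 1.01 and 0.915 CPM with TCF3-ZNF384 and at 0.109 or less in the other 6 libraries. It was called higher with TCF3-ZNF384 than with the empty vector (adjusted p = 0.00155 in edgeR). As the filter kept it only through TCF3-ZNF384, this rise is a description only. The part of any such cells in the results was not tested.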

How the data were processed

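RNA from 8 sorted pre-B cell cultures was measured as raw counts per gene, which the authors made with HTSeq 0.6.1p1 on mm9, per the submitters' processing notes; the aligner, annotation and strand setting are not given in the sources used here. Total counts were 9381954 to 41483660 per library, and intervals and limits cover counting error only.

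The deposited counts were tested in R 4.3.3 with edgeR 4.0.16: filterByExpr by group, TMM scaling, a robust quasi-likelihood fit of 1 term per group to the 8 libraries, with 4 residual degrees of freedom (biological coefficient of variation 0.0958), the quasi-likelihood F test, 2-sided, and Benjamini-Hochberg adjustment over 12970 genes at 0.05. The code was tested on simulated data. CPM values use TMM-scaled sizes; RPKM divides them by exonic length. Coordinates are mm9 with GENCODE vM1, matched by symbol; promoter windows are RefSeq, GRCm38.p6.

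The members, lists and tests were chosen with earlier results of these data known. All 9 members are named, with up to 3 genes per direction of each list by smallest adjusted p and 2 genes closest in pattern; the text prints part of these, and some genes are not reported here. Itgam, Tesk1, Ffar1, Bst1 and Fcer2a beside them were named after their values were seen. Alternatives were DESeq2 1.42.0 (Wald test, or its size factors in edgeR), limma-voom (limma 3.58.1), other filters, a fit restricted to the compared groups, and the replicate number as a block. Further ones were removal of 5 abundant non-coding genes, and total-count scaling with those 5 genes also removed. Libraries were also thinned to the shallowest (1 draw, and 20 draws added after seeing the data). Each library was also omitted in turn, when the lone library is assumed to vary like the other groups.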

Additional observations from a re-analysis of the deposited data

How the results depend on the processing

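Over the 8 tested members and 6 comparisons, the fits other than those that left out a library gave the same direction and side of the threshold in 437 cases, lost a call in 11, gained one in 10 and changed sign in 13; leaving out 1 library gave 313, 44, 7 and 20. No call changed sign: each reversal was of a change that did not pass the threshold. For Cd24a with full-length ZNF384 against the empty vector the change was -0.0023 with at least 2 CPM in 2 libraries, -0.0193 with only the groups compared, -0.0036 without the 5 non-coding genes, -0.0125 under total-count scaling, -0.002 after thinning, and -0.0923 to 0.0967 with 1 library left out. After thinning, Cr2 was at 0.0324 with TCF3-ZNF384 against the empty vector. Cd24a was at -0.0076 with no filter for TAF15-ZNF384 against full-length ZNF384. Ptprc for TCF3-ZNF384 against full-length ZNF384 was at 0.0037 with at least 2 CPM, 0.1384 under total-count scaling and 0.0479 after thinning. Cr2 for TCF3-ZNF384 against TAF15-ZNF384 was at -0.0411 in DESeq2, -0.2441 in limma-voom and -0.0437 with the replicate block. With 1 library left out, the range was -0.4121 to 0.0949 for Cd38 (full-length ZNF384 against the empty vector), -0.0459 to 0.1057 for Cd24a, -0.9973 to 0.2616 for Cr2 and -0.0162 to 0.1333 for Ptprc (TAF15-ZNF384 against the empty vector), and -2.1819 to 0.4381 for Cr2 (TCF3-ZNF384 against the empty vector). It was -0.0474 to 0.1289 for Cd24a (TAF15-ZNF384) and -0.084 to 0.0709 for Ptprc (TCF3-ZNF384) against full-length ZNF384, and -0.2598 to 0.2176 for Cd22, -0.3224 to 0.0907 for Cd38 and -1.9642 to 0.8147 for Cr2 between the fusions.

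A thinning is 1 random draw, and another seed gave other calls near the threshold, so 20 draws were made after seeing the data; their medians changed sign for Cd24a with full-length ZNF384 (-0.0025) and Cr2 with TCF3-ZNF384 (0.1058) against the empty vector, Ptprc for TCF3-ZNF384 against full-length ZNF384 (7e-04) and Cd22 between the fusions (0.0358), and lost 1 call, Cr2 for TCF3-ZNF384 against full-length ZNF384 (-1.8683).

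Counts of genes called moved by over 1.5 times with only the groups compared, to 2746 from 1430 for TAF15-ZNF384 against the empty vector and to 2548 from 1308 between the fusions. With 1 library left out they ranged from 1064 to 3814 (full-length ZNF384), 404 to 2783 (TAF15-ZNF384) and 2501 to 5372 (TCF3-ZNF384) against the empty vector, 2158 to 5333 and 3866 to 6558 for the fusions against full-length ZNF384, and 371 to 2361 between the fusions; fewer samples are fitted in each. Members called ranged from 3 to 5, 1 to 5, 3 to 6, 5 to 6, 5 to 7 and 0 to 3 in the same order, and total-count scaling left 2 of 4 for TAF15-ZNF384 against the empty vector. That scaling also leaves out the 5 non-coding genes. With it the median of all genes moved from 0.009 to 0.122 and from 0.011 to 0.152 for the fusions against the empty vector. Against full-length ZNF384 it moved from -0.021 to 0.122 and from 0.002 to 0.176. The share of calls that were rises went from 45.5% to 67.1%, 48.8% to 67.6%, 46.4% to 65.0% and 48.7% to 65.6%. For full-length ZNF384 against the empty vector it went from 52.1% to 41.7% with only the groups compared.

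With the replicate block, 2 calls on members changed, both gains for Cr2: 1.63 (adjusted p = 0.0389) for full-length ZNF384 against the empty vector and -1.90 (adjusted p = 0.0379) for TAF15-ZNF384 against full-length ZNF384. Deviations of libraries with the same number correlated at 0.014 to 0.225 between groups, all positive and not all over 0.1. With 2 libraries per group, this check cannot show whether libraries of the same number share more than that number. Depth limits Cr2 and Ms4a1, with at most 47 reads and 1 read per library.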
